A study of Saccharomyces cerevisiae with 3 samples.

Results

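The mevalonate and squalene synthesis genes of budding yeast are 10 genes, ERG10, ERG13, HMG1, HMG2, ERG12, ERG8, MVD1, IDI1, ERG20 and ERG9, out of 6002 nuclear protein-coding genes. They were taken by name as the enzymes that lead from acetyl-CoA to squalene, and all 10 were found in the gene table. Each was examined from 500 bp before its start codon to its stop codon in lists of regions enriched for histone H3 dimethylated (H3K4me2) or trimethylated (H3K4me3) on lysine 4. Cells of the laboratory strain BY4741 had grown in YEPD, a rich glucose medium, to mid-log phase and had been fixed with formaldehyde. Chromatin from nuclei was cut with micrococcal nuclease, which digests the DNA between nucleosomes, and was pulled down with an antibody against H3K4me2 in 1 library or H3K4me3 in another. Both libraries share strain, medium and growth phase, and the third sample, an input without antibody, was not analysed here.

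The mevalonate pathway joins acetyl-CoA units into the isoprenoid building blocks from which sterols, ubiquinone, dolichol, haem A and the lipid anchors of prenylated proteins are made. HMG-CoA reductase, which yeast encodes in the duplicated genes HMG1 and HMG2, is its main control point. HMG1 is known as the main reductase of aerated cultures, while the HMG2 protein is known for regulated degradation at the endoplasmic reticulum and for a larger part at low oxygen. In yeast the Set1 complex places H3K4 methylation during transcription, and H3K4me3 typically lies at the beginning of active genes with H3K4me2 further into them.

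The H3K4me2 list held 2998 peaks with a median of 453 tags, and the H3K4me3 list held 3714 peaks with a median of 391 tags. The smallest listed peaks held 170 and 128 tags, so a gene without a peak may carry a mark below what was listed. With 1 library per mark there is no replicate error, no test was made, and all comparisons below describe these 2 libraries. In a culture, a mark in fewer cells and a weaker mark in every cell cannot be told apart. Fold enrichment, tags and score are the authors' own values per peak and were read within 1 list only, because they vary with sequencing depth, and the depth of both libraries is unknown. The genes that are removed from BY4741, LEU2, URA3 and MET17, had no peak of either mark, while HIS3, which is deleted in part, had an H3K4me3 peak over 80.4% of its first 500 bp.

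H3K4me3 lay over the start of every member, and H3K4me2 over the start of 7. The rule for a marked start was coverage by peaks of at least 50% of the first 500 bp of the gene. By it 10 of 10 members carried H3K4me3, against 64.6% of all 6002 genes, and 7 of 10 carried H3K4me2, against 43.5% of all genes. The same 7 members carried both marks (38.4% of all genes). The remaining members, HMG1, HMG2 and IDI1, had H3K4me3 alone, a class that holds 26.2% of all genes. No member lacked both marks, as 30.3% of all genes did. The shares were also taken among genes of similar length, as 8 members are between 867 and 1476 bp long. Among the 1762 genes in that range 70.1% had H3K4me3 and 55.2% had H3K4me2 at the start, beside 8 and 7 of the 8 members. The H3K4me2 count is sensitive to the limit: ERG13, ERG8 and ERG12 lay just inside it with 55.0, 57.6 and 64.4% of the window, HMG1 had 24.4%, and with a limit of 75%, with windows of 250 bp, or with peaks at or above the median fold the count was 4. With all peaks trimmed to 500 bp at their summits it was 0.

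**Figure D1:**
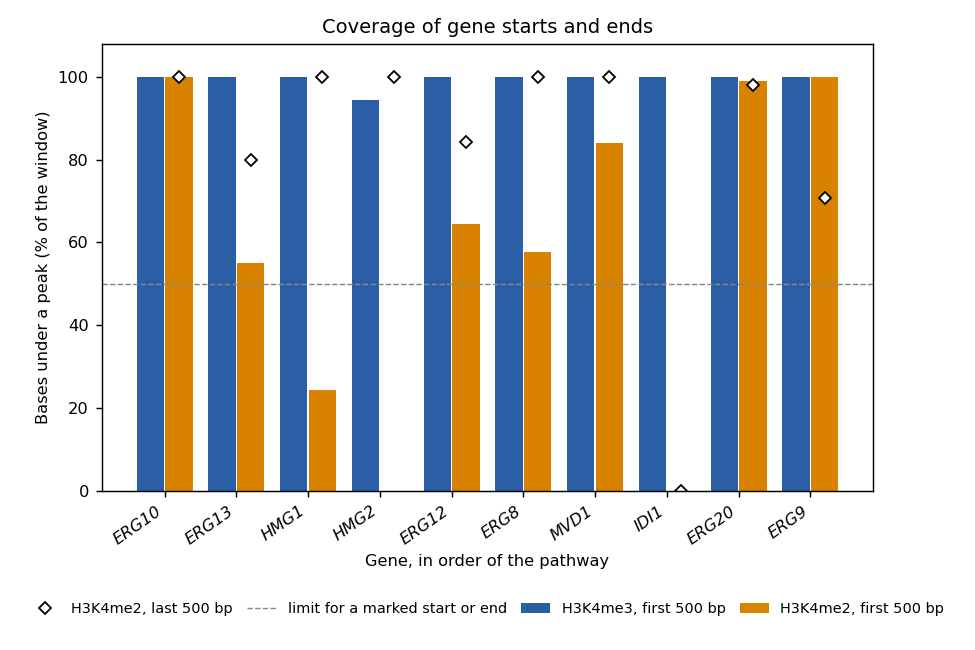
Share of the first 500 bp of each member under H3K4me3 peaks (blue bars) and H3K4me2 peaks (orange bars), and of the last 500 bp under H3K4me2 peaks (white diamonds), in percent of the window; the dashed line is the 50% limit and each value comes from 1 library. All blue bars reach at least 94.4%, whereas the orange bars run from 0% at HMG2 and IDI1 to 100% at ERG10 and ERG9.

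H3K4me2 lay over the ends of more members than H3K4me3 did, 9 against 6. Genes as long as the 8 shorter members showed the same order, 58.5% against 42.8%. Peaks of H3K4me2 covered at least 50% of the last 500 bp in 9 of 10 members, against 32.4% of all genes; the count was 4 with peaks at or above the median fold and 5 with trimmed peaks. Of the 8 shorter members 7 met this rule, against 58.5% of genes of their length, and H3K4me3 met it in 5 of the 8, against 42.8%. In genes this short the first and last windows lie close together or overlap, so that a single peak of the median H3K4me2 width of 1049 bp can cover both. Over the region from 500 bp before the start codon to the stop codon, H3K4me2 covered a median of 1181 bp per member (range 0 to 1689 bp) and H3K4me3 a median of 1253 bp (range 909 to 1835 bp). The medians over all genes were 481 bp and 805.5 bp, and over genes as long as the 8 shorter members 853 bp and 975 bp. All these medians count genes without a peak as 0 bp, so they also reflect how many genes were marked. Any H3K4me2 was present in 9 of 10 members, 3623 of 6002 genes and 1242 of the 1762 genes of similar length. Over this whole region H3K4me2 covered at least as many bases as H3K4me3 in 3 of 10 members. This count was made for the members alone, so it cannot be called high or low. Within the gene alone, H3K4me2 covered more bases than H3K4me3 in 8 of 10 members, IDI1 and ERG13 being the exceptions. The share was 44.2% over the 4357 genes with a mark inside the gene. Of the 8 shorter members 6 did so, against 45.5% of such genes in their length range. The margin could be small: it ran from 1111 against 1079 bp at MVD1 to 1495 against 1049 bp at HMG1.

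**Figure D2:**
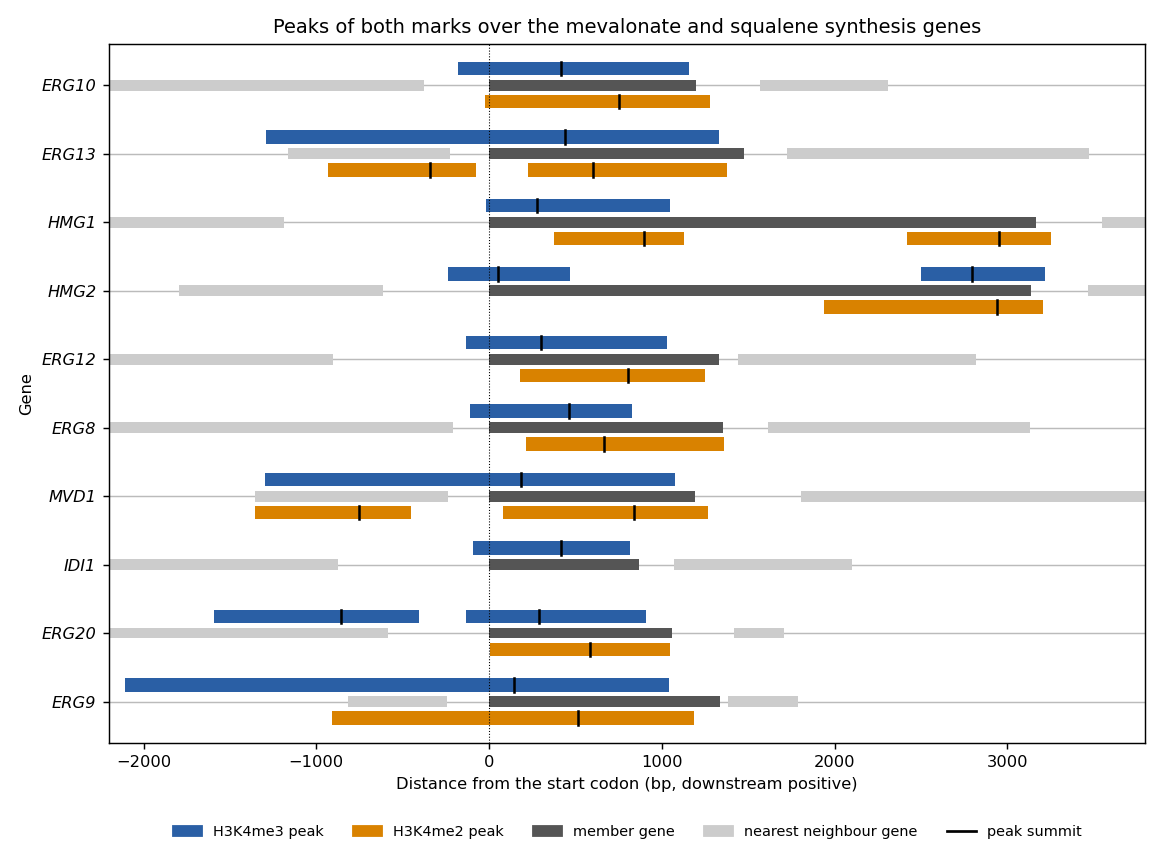
Peaks of H3K4me3 (blue, above each gene) and H3K4me2 (orange, below) over the 10 members, drawn to scale from the start codon in bp; dark bars are the members, light bars their nearest protein-coding neighbours, and black ticks the peak summits. In 8 members the first orange summit inside the gene lies to the right of the blue one, IDI1 has no orange bar, and HMG2 has one at its far end alone.

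The genes of the first steps, which join acetyl-CoA units into HMG-CoA, lay under at least 1 mark along nearly their whole length. This was not particular to them. Bases under neither mark were 0 bp at ERG10 and 100 bp at ERG13. Among the other shorter members they ran from 0 bp at ERG8 and MVD1 to 146 bp at ERG9. ERG10 encodes acetoacetyl-CoA thiolase (YPL028W, chromosome XVI, 498096 to 499292, plus strand). Its H3K4me2 peak (683 tags, 2.89-fold) covered 100% of the gene and ran 82 bp past the stop codon. The H3K4me3 peak (669 tags, 3.62-fold) began 180 bp before the start codon and ended 36 bp short of the stop codon, so the marks shared 1161 of the 1197 bp of the gene. Their summits lay apart, at 414 bp for H3K4me3 and 751 bp for H3K4me2.

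ERG13 encodes HMG-CoA synthase (YML126C, chromosome XIII, 19060 to 20535, minus strand). Here H3K4me3 formed a single peak of 2626 bp (1347 tags, 3.54-fold), wider than 99.3% of the list. It also spanned the start of the upstream neighbour PGA3, which lies on the same strand, and 50.8% of its bases were inside ERG13. H3K4me2 was split under it into a peak inside ERG13, from 225 to 1375 bp after the start codon (581 tags, 2.54-fold), and a peak of 402 tags over PGA3. The stretch around the ERG13 start codon, from 78 bp before it to 225 bp after it, thus lay under H3K4me3 without H3K4me2.

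Mevalonate is turned into isopentenyl diphosphate by ERG12, ERG8 and MVD1, and all 3 genes showed H3K4me3 in front and H3K4me2 behind. ERG12 encodes mevalonate kinase (YMR208W, chromosome XIII, 684467 to 685798, plus strand). H3K4me3 ran from 136 bp before the start codon to 1028 bp after it (446 tags, 3.15-fold), and H3K4me2 from 178 to 1253 bp (480 tags, 3.37-fold). This H3K4me2 peak had the highest fold of any at the members and exceeded 99.1% of its list, while the H3K4me3 peak stood near the middle of its own list, above 55.0% of it.

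ERG8 encodes phosphomevalonate kinase (YMR220W, chromosome XIII, 712316 to 713671, plus strand) and had the longest stretch of H3K4me2 alone among the shorter members. The H3K4me3 peak (373 tags, 2.79-fold) ended 826 bp after the start codon, while H3K4me2 (453 tags, 2.36-fold) ran on to 1359 bp, 4 bp past the stop codon. H3K4me3 alone covered 212 bp, both marks 615 bp and H3K4me2 alone the last 529 bp. Over the 2707 genes in which the marks share any base, the corresponding medians were 58, 771 and 137 bp. The ERG8 H3K4me2 peak had a score of 98.13, just below a limit of 100 that was tried as an alternative, and its fold exceeded 17.3% of the list.

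MVD1 encodes mevalonate diphosphate decarboxylase (YNR043W, chromosome XIV, 701895 to 703085, plus strand). Its H3K4me3 peak of 2374 bp (1133 tags, 3.44-fold) bridged the 235 bp to the divergent gene COQ2, which encodes the prenyltransferase of ubiquinone synthesis. H3K4me2 formed a separate peak on each side, with 595 tags over MVD1 from 80 to 1269 bp after its start codon and 404 tags over COQ2. The fold values of these H3K4me2 peaks were 2.93 and 2.76. From 450 bp before the MVD1 start codon to 80 bp after it there was H3K4me3 without H3K4me2. This stretch holds the 235 bp between both genes and the beginning of each gene.

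IDI1 and ERG20 follow each other in the pathway and differed in H3K4me2. IDI1 encodes isopentenyl diphosphate isomerase (YPL117C, chromosome XVI, 327864 to 328730, minus strand). With 867 bp it is the shortest member. Its H3K4me3 peak (386 tags, 2.45-fold) covered 94.2% of the gene, and no H3K4me2 peak touched the gene or the 500 bp before it. This H3K4me3 peak had the lowest fold of the members' start peaks, above 6.06% of the list, although its tags per kb exceeded 61.2% of the list.

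ERG20 encodes farnesyl diphosphate synthase (YJL167W, chromosome X, 105014 to 106072, plus strand), whose product is the branch point to sterols and to the other isoprenoids. H3K4me2 (478 tags, 2.33-fold) began 5 bp after the start codon and ended 9 bp short of the stop codon, covering 98.7% of the gene. H3K4me3 (472 tags, 3.53-fold) ran from 131 bp before the start codon to 911 bp after it. Another H3K4me3 peak (564 tags), over the divergent gene SET2, reached into the upstream part of the region.

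ERG9 encodes squalene synthase, the first step committed to sterols (YHR190W, chromosome VIII, 484845 to 486179, plus strand), and had the widest peaks of the members for both marks. Its H3K4me3 peak spanned 3145 bp (1507 tags, 3.73-fold), wider than 99.8% of the list, and covered the starts of PTH1 and GPI16 as well. The H3K4me2 peak spanned 2096 bp (1026 tags, 2.98-fold), wider than 98.2% of its list, and also covered the start of PTH1. Only 33.1% of the H3K4me3 peak and 56.7% of the H3K4me2 peak lay inside ERG9, so these tags are not those of ERG9 alone. The summits of both peaks were inside ERG9, at 144 bp for H3K4me3 and 517 bp for H3K4me2.

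In all 9 members with both marks, the centre of the bases under H3K4me2 lay downstream of the centre of those under H3K4me3, as it did in 81.9% of the 3229 genes that have both marks in this region. The offset had a median of 269.5 bp over the members (range 74.5 to 1252 bp) and of 176 bp over all genes (quartiles 41.2 and 318.5 bp). In order, it was 74.5 bp at ERG9, 90.3 bp at ERG13, 96.5 bp at ERG10, 207 bp at ERG20, 269.5 bp at ERG12, 297 bp at MVD1, 424.5 bp at ERG8, 1140 bp at HMG2 and 1252 bp at HMG1. The 7 shorter members thus stayed below 425 bp, and the reductase genes stood beyond them.

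The 500 bp before the start codon hold the upstream ends of the members' own H3K4me3 peaks and, at ERG13, MVD1, ERG20 and ERG9, bases of peaks that also cover a neighbour, and both move these centres. Counted inside the gene alone, the median offset over the 9 members was 133 bp, and it was 18.0 bp at ERG10, 71.5 bp at ERG20 and 96.0 bp at MVD1. Over the 2727 genes with both marks inside the gene the median was 127 bp. Measured instead between the summits of the peaks with most bases in the first 1000 bp, the offset had a median of 355 bp over the 8 members with both peaks there (range 164 to 653 bp), against 310 bp over 2706 genes. H3K4me2 was the downstream mark in every member that had both under all 3 measures. With peaks trimmed to 500 bp at their summits it was so in 8 of 9, ERG13 being the exception at -238 bp, where the H3K4me2 peak of PGA3 enters the region.

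**Figure D3:**
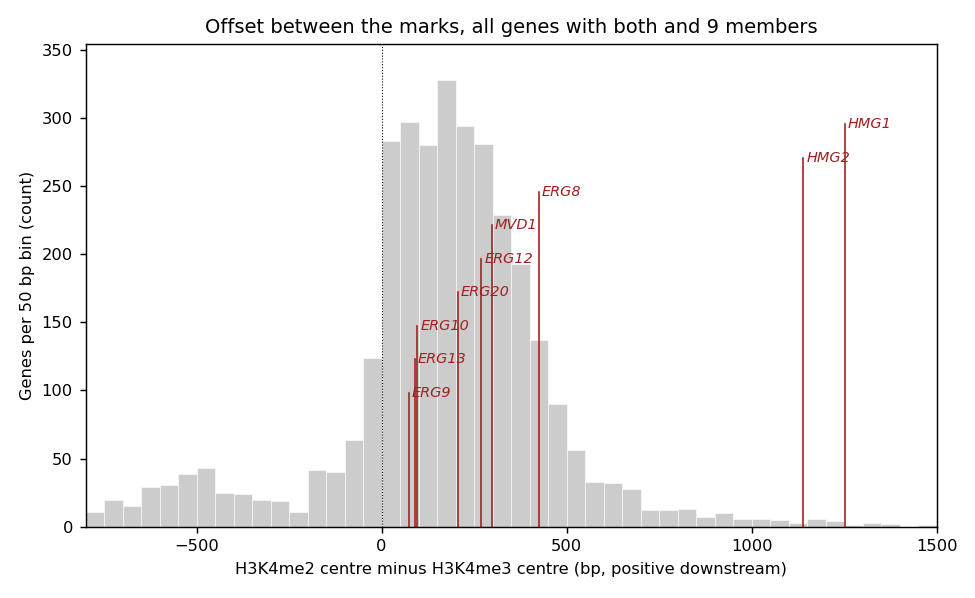
Distance from the centre of the H3K4me3-covered bases to that of the H3K4me2-covered bases, in bp, over the 3229 genes with both marks (grey, genes per bin of 50 bp; 12 genes below and 8 above the axis are not drawn), with the 9 members as red lines whose heights separate the labels and carry no value. The shorter members lie between 74.5 and 424.5 bp, inside the bulk of genes, and HMG2 and HMG1 at 1140 and 1252 bp in its sparse right tail.

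The reductase genes differed from the other members and from each other in where H3K4me2 lay. HMG1 (YML075C, chromosome XIII, 115734 to 118898, minus strand) had H3K4me3 at its start, a short H3K4me2 peak behind it and a second H3K4me2 peak at the gene's end. HMG2 (YLR450W, chromosome XII, 1032627 to 1035764, plus strand) had H3K4me3 at its start with no H3K4me2 behind it, and peaks of both marks at its end. They are similar in length, 3165 and 3138 bp, and were compared with the 527 genes of at least 3000 bp.

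At the HMG1 start, H3K4me3 ran from 15 bp before the start codon to 1048 bp after it (447 tags, 3.15-fold). H3K4me2 ran from 378 to 1127 bp after it (311 tags, 2.24-fold), with its summit 622 bp downstream of the H3K4me3 summit, and covered 24.4% of the first 500 bp. At the HMG2 start, H3K4me3 lay nearer to the promoter, from 237 bp before the start codon to 471 bp after it (277 tags, 3.08-fold). Its summit was 52 bp after the start codon, against 277 bp in HMG1. No H3K4me2 peak covered any of the first 1938 bp of HMG2. Among long genes 66.8% had H3K4me3 over the first 500 bp and 46.3% had no H3K4me2 in the first 1000 bp.

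Both reductase genes carried H3K4me2 over the whole of their last 500 bp, which only 3.04% of long genes had over at least 50% of that window (16 of 527, HMG1 and HMG2 included). The HMG1 peak ran from 2420 bp after the start codon to 90 bp past the stop codon (329 tags, 2.28-fold). The HMG2 peak was wider, from 1938 bp after the start codon to 69 bp past the stop codon (566 tags, 2.49-fold). Their summits lay at 93.4% and 93.7% of the gene length. In HMG2 an H3K4me3 peak (245 tags, 2.32-fold) overlay the terminal H3K4me2 from 2499 bp onward, and in HMG1 no H3K4me3 peak did. An H3K4me3-marked end was found in 1.52% of long genes, 8 in number. Of the 16 long genes with a marked H3K4me2 end, 6 had H3K4me3 there too. HMG2 was the 1 gene of the 16 with H3K4me3 at its start and no H3K4me2 in its first 1000 bp.

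Downstream of each reductase gene lies a gene for a transcription factor on the same strand, WAR1 after HMG1 at a distance of 386 bp and LEU3 after HMG2 at 328 bp. The terminal H3K4me2 peak ended 297 bp before the start codon of WAR1 and 260 bp before that of LEU3. Both downstream genes had an H3K4me3 peak of their own at the start, which began 194 bp before the start codon of WAR1 and 163 bp before that of LEU3. WAR1 had H3K4me2 inside the gene, and LEU3 had none. The part of these neighbours in the terminal peaks was not tested.

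**Figure D4:**
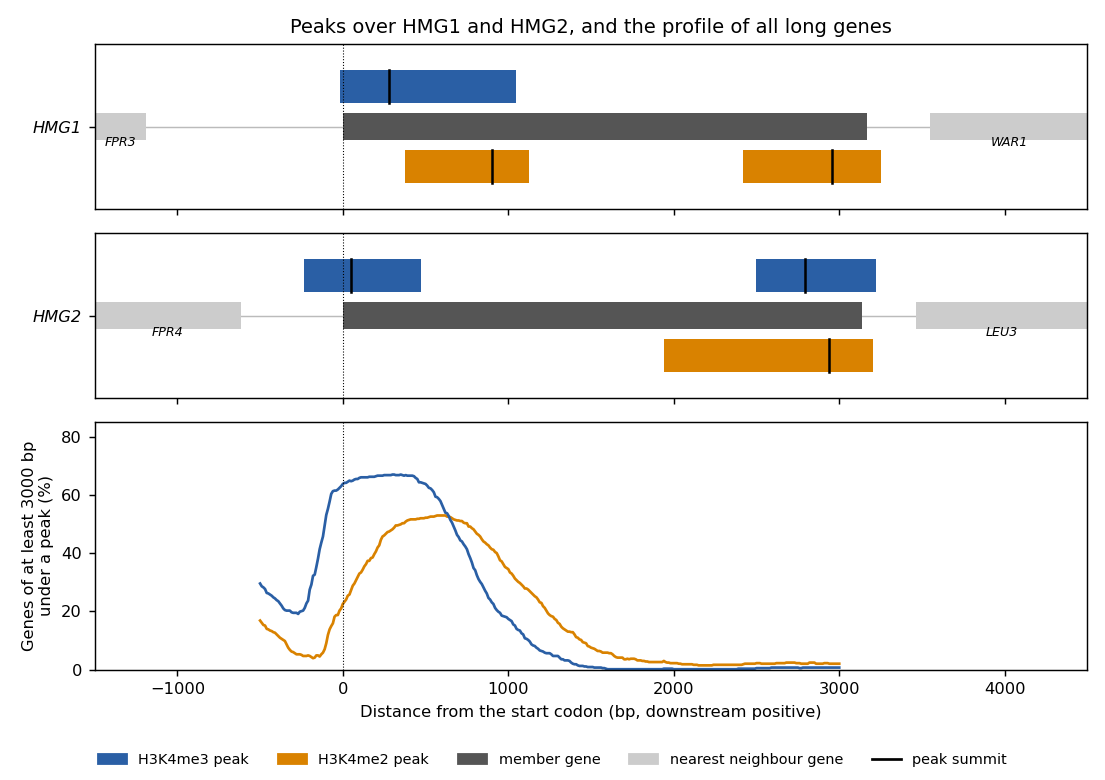
Peaks of H3K4me3 (blue) and H3K4me2 (orange) over HMG1 and HMG2 with their neighbours, in bp from the start codon, above the share of the 527 genes of at least 3000 bp under a peak at each position, in percent. The long-gene profiles peak at 67.0% for H3K4me3, 300 bp after the start codon, and at 52.9% for H3K4me2, 570 bp after it, and at 2500 bp they are down to 0.569% and 2.28%, where HMG2 has both marks and HMG1 has H3K4me2.

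In total H3K4me2 covered 1495 bp of HMG1 and 1200 bp of HMG2, a difference of 295 bp. The H3K4me2 extent was lower in 91.5% of the long genes than in HMG1 and in 79.9% than in HMG2. The median long gene had 711 bp, with genes without a peak counted as 0 bp (320 of 527 had some H3K4me2). The large offsets of 1252 and 1140 bp came from the terminal peaks, and the median of the 302 long genes with both marks was 224 bp. The HMG1 comparison rests on weak peaks: its H3K4me2 peaks had scores of 69.36 and 74.15, above 12.4 and 14.9% of the list, and with peaks of a score of at least 100 HMG1 had no H3K4me2, so the difference in extent became -1200 bp. The terminal H3K4me3 peak of HMG2 had a score of 67.88, and without it the HMG2 offset was 2420.5 bp, larger than that of HMG1.

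The likeness of other genes to HMG1 and HMG2 was measured as the share of bases under a peak in both genes among those under a peak in either (Jaccard index, averaged over the 2 marks), from 500 bp before to 2000 bp after the start codon, in 1325 other genes of at least 2000 bp. The window stops before the terminal H3K4me2 peak of HMG1, which begins 2420 bp after the start codon. It holds only the first bases of that of HMG2, which begins at 1938 bp, so the index does not compare gene ends. Most like HMG1 within it were CDC16, a subunit of the anaphase-promoting complex (0.931), RTT10 (0.920) and CFT2, a subunit of the mRNA cleavage factor (0.905). For HMG2 the highest values were lower, at 0.516 for USA1, a scaffold of the Hrd1 ubiquitin ligase, 0.492 for the meiosis gene SPO22 and 0.478 for the ubiquitin protease gene UBP15. A gene with no base under a mark in the window scored 0 for that mark. In this window HMG2 has H3K4me2 over its last bases alone, which SPO22 shared (0.984 for that mark) without the H3K4me3. UBP15 shared the H3K4me3 alone (0.957 for that mark). These few H3K4me2 bases weighed as much as all of the H3K4me3. The values for HMG2 thus depend on where the window was cut and do not show that few genes resemble it. HMG1 and HMG2 had an index of 0.189 with each other, from H3K4me3 alone, and HMG2 ranked 960 of 1325 in likeness to HMG1. The H3K4me2 over the last 500 bp of both genes lies outside the window and does not enter this value.

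The genes that act after squalene nearly all carried both marks at the start. Of 14 late ergosterol genes 14 carried H3K4me2 (43.5% of all genes), 13 carried H3K4me3 (64.6% of all genes) and 13 carried both (38.4%). The exception was ERG28, a scaffold of the C-4 demethylation enzymes, with H3K4me2 alone. The median length of this list was 1234.5 bp. Among genes of 867 to 1476 bp, a range that several of the list lie outside, 55.2% had H3K4me2 and 70.1% had H3K4me3 at the start. ERG6, the sterol C-24 methyltransferase (3.5-fold), and NCP1, the reductase that supplies electrons to the sterol P450 enzymes (3.46-fold), had the strongest H3K4me3. The median offset was 250 bp over 13 genes, downstream in all 13 (81.9% of all genes with both marks). Each of 6 sterol regulator genes (UPC2, ECM22, HAP1, ROX1, MOT3 and SUT1) carried both marks at the start, as 38.4% of all genes did. MOT3 (4.72-fold) and HAP1 (3.71-fold) were strongest for H3K4me3. The median offset over the 6 genes was 60.8 bp, against 176 bp over all genes with both marks.

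Of 13 genes that use the isoprenoid diphosphates for other products 10 carried H3K4me3 and 7 carried H3K4me2, near 64.6 and 43.5% of all genes. The strongest H3K4me3 was at RER2, a cis-prenyltransferase of dolichol synthesis (3.77-fold), and at COQ2 (3.44-fold), which shares its peak with MVD1. RER2, NUS1, its partner subunit, and BTS1, geranylgeranyl diphosphate synthase, had H3K4me3 alone, with H3K4me2 over 45.4, 30.2 and 46.2% of the window, below the limit. SRT1, a second cis-prenyltransferase gene, and BET4, a subunit of the prenyltransferase for Rab proteins, had no peak of either mark in the window. COX10, the haem A pathway farnesyltransferase gene, had both marks below the limit, with H3K4me3 over 38.8% and H3K4me2 over 36.0% of the window.

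Among 8 genes that act on the stability of the reductase proteins, 6 carried H3K4me3 and 3 carried both marks, namely CUE1, NSG1 and NSG2, near the 64.6 and 38.4% of all genes. The ubiquitin ligase gene HRD1 and its partner gene HRD3 had neither mark at the start. USA1, the ubiquitin-conjugating enzyme gene UBC7 and CDC48 had H3K4me3 alone. CDC48, an ATPase that extracts ubiquitinated proteins, and NSG2, a homologue of INSIG, had the strongest H3K4me3 at 3.69- and 3.43-fold. H3K4me2 lay over the whole of the last 500 bp of USA1, CDC48, CUE1, NSG1 and NSG2. Of all genes 32.4% had it over at least 50% of that window. The offsets were 1453 bp at USA1 and 1073 bp at CDC48. They were 269, 283 and 266 bp at CUE1, NSG1 and NSG2, which are shorter genes of 612, 876 and 900 bp. USA1, at 2517 bp too short for the comparison of long genes, had the arrangement of HMG2: H3K4me3 over 100% of its first and 64.8% of its last 500 bp, and no H3K4me2 in its first 1000 bp. CDC48 had no H3K4me3 in its last 500 bp. Its H3K4me2 was a single peak from 334 to 2537 bp after the start codon, over 86.7% of the gene, and not a separate peak at the end. Of the acetyl-CoA synthetase genes, ACS2 had H3K4me3 (3.4-fold) with H3K4me2 over 43.2% of the window, while ACS1, which is repressed by glucose, had neither at its start and both marks over its whole last 500 bp, with an offset of -45 bp.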

How the data were processed

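Per the labels' protocols, chromatin was immunoprecipitated from 1 culture condition with 1 library per mark. The submitters' processing notes name MACS 1.4.2, which calls peaks, CASAVA 1.8.2 and the build sacCer3. The aligner, all settings and the control were not given in the sources used here. What the authors deposited is, per peak, its start, end and summit, a raw tag count, a fold enrichment, which is a ratio to a background that the file headers leave unnamed, and a score headed as a p-value. Its values exceed 50, so it was read as -10 times the log10 of p. Total depth is unknown.

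Genes came from the RefSeq R64 table, the assembly that sacCer3 names, with strand from the systematic name. Covered bases, their centres and windows were computed with Python 3.11.15, numpy 2.4.6 and pandas 2.3.3, and the functions were tested on simulated peaks. Alternatives were limits on score and fold, equal list lengths, trimmed peaks and other windows. The members and lists were chosen with earlier results of these data known. All members are named; other lists name genes without both marks, and the 2 with the highest H3K4me3 fold. Peaks in the first 1000 bp and neighbouring genes were examined after values were seen. The planned promoter and protein comparison was not run, as those sequences were not used here.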

Additional observations from a re-analysis of the deposited data

How the results depend on the processing

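With 1 library per mark no replicate could be left out. Of 51 values under alternative settings, 36 stayed within 1.5 times the reported value, 13 moved further and 2 changed sign. The H3K4me3 start count was 10 except with a lower limit on fold, at each list's median (7). That limit left 4 members with H3K4me2 at the start, 4 with it at the end and H3K4me2 downstream in 4 of the 4 that still had both marks, a median H3K4me2 extent of 0 bp and a difference of 0 bp between HMG1 and HMG2, since neither kept an H3K4me2 peak. With peaks trimmed to 500 bp at their summits, 0 members had H3K4me2 at the start and 5 at the end. The median extent was then 500 bp, as the setting fixes, and HMG1 exceeded HMG2 by 514 bp (960 against 446 bp). At a fixed width this difference follows the number of H3K4me2 peaks, of which HMG1 has more, and says nothing about their width. H3K4me2 lay over the start of 4 members with windows of 250 bp, and of 4 with a limit of 75% of the window. Without the upstream part, the median offset was 133 bp and HMG1 exceeded HMG2 in offset by 428 bp. With a score of at least 100 the HMG1 minus HMG2 difference in H3K4me2 extent was -1200 bp. With the H3K4me3 list cut by score to the length of the H3K4me2 list, which drops the terminal H3K4me3 peak of HMG2, the difference in offset was -1168 bp. With the score and fold limits HMG1 has no H3K4me2 and no offset. The summit comparison was chosen after seeing the data.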

Other observations

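The genes upstream of the reductase pair are themselves duplicates, FPR3 before HMG1 and FPR4 before HMG2, which encode nuclear proline isomerases, and both carried both marks at the start. These genes were looked at after their values were seen. H3K4me3 began 114 bp before the start codon of FPR3 and 112 bp before that of FPR4, with 669 and 608 tags at 3.26- and 3.15-fold. H3K4me2 began 217 and 231 bp after the start codon, with 517 and 463 tags at 2.49- and 3.05-fold. At their starts H3K4me2 covered 56.6 and 53.8% of the first 500 bp, compared with 24.4% in HMG1 and 0% in HMG2. The summits lay apart: that of H3K4me3 at 515 bp in FPR3 and 180 bp in FPR4, and that of H3K4me2 at 512 and 822 bp. The offset between the centres of the marks was 33.2 bp in FPR3 and 183 bp in FPR4.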
